A study of Homo sapiens with 8 samples.

Results

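CILP and VCAN, which encode 2 proteins of the extracellular matrix, were followed through the ribosome footprint counts of OVCAR3 cells, an established human ovarian carcinoma line. They are 2 of the 20165 gene regions in the deposited counts. Each was found by mapping the transcript identifiers of a region to gene symbols, and each matched 1 region. They were selected on their adjusted p-values, the smallest of all genes when siTARG1 was compared with siControl cells, in both cases through a fall, so their values in that comparison are given as a description without a test. Ribosome profiling (Ribo-seq) sequences the pieces of mRNA that ribosomes protect from RNase, and a footprint count therefore follows both the amount of an mRNA and its use by ribosomes. RNA-seq libraries were not analysed here, and the counts below are footprint abundances. Since these are bulk cultures, fewer cells that make a protein and fewer footprints per cell cannot be told apart.

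The series comprised 4 groups of 2 libraries. In the siRNA experiment, a control siRNA was given to OVCAR3 cells in the siControl group, while in the siTARG1 group it was directed at OARD1, each at 30 nM. OARD1 encodes the hydrolase TARG1, which takes mono(ADP-ribose) off proteins. In the RACK1 experiment, both groups were OVCAR3 cells transduced with lentiviral vectors for doxycycline-inducible knockdown of endogenous RACK1 and doxycycline-inducible re-expression of RACK1. The re-expressed protein was wild type in RACK1-WT and lacked the MARylation sites in RACK1-Mut, and both lines received 1 µg/ml doxycycline. RACK1 is a scaffold protein bound to the small subunit of the ribosome. All cells were harvested after 48 h. The siRNA and RACK1 experiments therefore differ in cell line, in doxycycline and in the experiment itself, which cannot be told apart in any comparison of levels between them. The labels do not say whether replicates were separate cultures, so the spread between them may be technical.

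Cartilage intermediate layer protein (CILP) is a secreted glycoprotein best known from articular cartilage, where it binds TGF-β and dampens TGF-β and IGF-1 signalling. Versican (VCAN) is a large chondroitin sulfate proteoglycan. One end of its core protein binds hyaluronan, the other binds matrix glycoproteins such as tenascins and fibulins, and the region between carries the chondroitin sulfate chains. In ovarian carcinoma, versican is known mainly from the tumor stroma, where it is linked to adhesion and movement of the cancer cells.

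The genes differ in architecture. CILP lies at chr15:65487098-65503811 on the minus strand (GRCh37) and is represented by 1 transcript with 9 exons. Its coding sequence of 3555 nt encodes 1184 amino acids, and the counted region adds 167 nt of 5′ UTR and 1973 nt of 3′ UTR. VCAN lies at chr5:82767437-82878122 on the plus strand, and 4 transcripts were merged into its region. The counted coding sequence of 10191 nt is that of the longest isoform, V0, with 3396 codons before the stop. The other isoforms, V1, V2 and V3, encode 2409, 1642 and 655 amino acids. They differ by the chondroitin sulfate attachment exons 7 and 8, which are 2961 and 5262 nt long, make up 80.7% of the counted coding length and are each present in 2 of the 4 isoforms. Because the deposited counts are sums over the merged region, isoforms of VCAN could not be separated, and a level per kilobase is set against the V0 length even where shorter isoforms contribute. A long noncoding RNA, VCAN-AS1, overlaps VCAN on the opposite strand, whereas no annotated gene overlaps CILP.

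The 250 bases upstream of each RefSeq start (GRCh38.p14) are shown as a description. Any link of these sequences to the fall in siTARG1 was not tested. Capitals mark TATAA in both and, in VCAN, CCGCCC, which is GGGCGG read on the opposite strand.
CILP promoter, chr15:65211474-65211723, minus strand: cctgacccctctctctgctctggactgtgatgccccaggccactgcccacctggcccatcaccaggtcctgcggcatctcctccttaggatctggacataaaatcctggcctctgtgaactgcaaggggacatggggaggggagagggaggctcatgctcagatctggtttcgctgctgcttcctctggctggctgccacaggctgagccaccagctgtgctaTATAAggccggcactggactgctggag
VCAN promoter, chr5:83471494-83471743, plus strand: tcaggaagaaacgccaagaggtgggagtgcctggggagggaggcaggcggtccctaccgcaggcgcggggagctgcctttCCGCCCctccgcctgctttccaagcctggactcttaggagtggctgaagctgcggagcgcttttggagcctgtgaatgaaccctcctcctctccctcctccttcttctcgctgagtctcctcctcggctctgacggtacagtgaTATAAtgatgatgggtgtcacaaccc
Both stretches held TATAA, the core of a TATA box, at 27 bases before the start in CILP and at 26 bases before it in VCAN. TATAA on the sense strand was found in the same window of 13.6% of 35116 promoters, and between 40 and 20 bases before the start in 3.91% of them. GC content was 60.8% in both, against a median of 58.0%. On both strands, CCAAT (held by 32.0% of promoters), TGANTCA (6.57%), CAGACA (13.6%) and GGAATG (11.9%) were in neither stretch, and GGGCGG (42.6%) was in VCAN alone. The motifs were chosen after the sequences had been seen.

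CILP footprints were abundant in siControl cells and several-fold lower in each of the other groups. The coding sequence collected 8549 and 6322 reads in siControl, 1309 and 1062 in siTARG1, 3743 and 3674 in RACK1-WT, and 2491 and 2443 in RACK1-Mut. Coding totals ranged from 3100947 to 6604190 reads per library, so counts were normalized with DESeq2 size factors of all 8 libraries. Normalized counts of CILP were 8753 and 8786 in siControl, 1270 and 1393 in siTARG1, 2450 and 2539 in RACK1-WT, and 2510 and 2711 in RACK1-Mut. Both siControl libraries were above all others, both siTARG1 libraries were below all others, and the RACK1-WT and RACK1-Mut ranges overlapped. As group means, these were 8769 ± 23.5 in siControl, 1332 ± 86.7 in siTARG1, 2494 ± 62.6 in RACK1-WT and 2610 ± 143 in RACK1-Mut (SD, n = 2).

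VCAN shared the high level in siControl but not the order of the other groups. Its coding reads were 8891 and 6671 in siControl, 1997 and 1776 in siTARG1, 2303 and 1786 in RACK1-WT, and 1362 and 1223 in RACK1-Mut. After normalization these became 9103 and 9271 in siControl, 1938 and 2330 in siTARG1, 1507 and 1234 in RACK1-WT, and 1372 and 1357 in RACK1-Mut. The siTARG1 libraries were again far below siControl, but here they lay above all 4 RACK1 libraries, whose groups overlapped. Group means were 9187 ± 119 in siControl, 2134 ± 277 in siTARG1, 1371 ± 193 in RACK1-WT and 1365 ± 10.5 in RACK1-Mut (SD, n = 2).

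**Figure D1:**
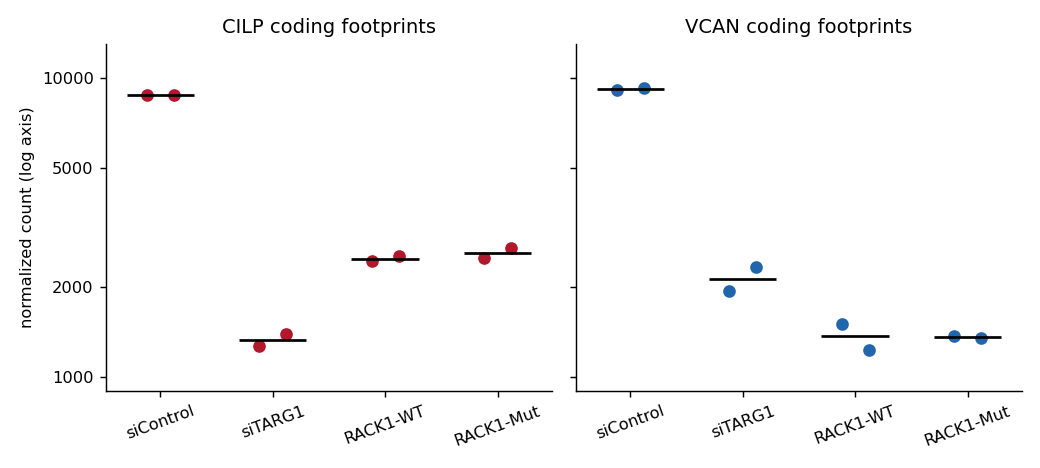
Normalized coding footprint counts of CILP (left) and VCAN (right) by group, on a log axis, with 1 point per library and a line at the mean of the 2 libraries. Both siControl libraries, at 8753 and 8786 for CILP and at 9103 and 9271 for VCAN, sit above the other 6 libraries, and siTARG1 is the lowest group for CILP but not for VCAN.

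In siControl cells both genes were among the most heavily sampled coding sequences. CILP ranked 35th and 34th of all regions by coding reads in the siControl libraries, and VCAN ranked 29th and 26th. In siTARG1 cells the ranks were 599 and 542 for CILP and 333 and 260 for VCAN. CILP took 0.203% and 0.204% of all coding reads in siControl but 0.0311% and 0.0338% in siTARG1. VCAN took 0.211% and 0.215% in siControl but 0.0475% and 0.0565% in siTARG1. The genes thus drew similar numbers of reads in siControl, although the VCAN coding sequence is much the longer.

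Corrected for length, with VCAN set against its V0 length, CILP was the more densely occupied gene in every library. Where shorter VCAN isoforms contribute, the VCAN density is understated and the ratio of CILP to VCAN is overstated. In reads per kilobase of coding sequence per 1000000 coding reads of the library, CILP reached 572 ± 1.41 in siControl, 91.2 ± 5.29 in siTARG1, 163 ± 5.63 in RACK1-WT and 174 ± 9.23 in RACK1-Mut (SD, n = 2). On that scale VCAN reached 209 ± 2.66, 51.0 ± 6.25, 31.3 ± 4.12 and 31.8 ± 0.299 in the same order. CILP stood at the 98.3rd and 98.2nd percentiles of all regions per kilobase in siControl and still at the 89.4th and 90.1st in siTARG1. VCAN went from the 95.3rd and 95.2nd percentiles in siControl to the 82.2nd and 84.6th in siTARG1, and lay between the 75.1st and 78.1st in the RACK1 lines. Neither gene was therefore silent in any group. The ratio of CILP to VCAN density was 2.74 ± 0.0281 in siControl, 1.80 ± 0.117 in siTARG1, 5.28 ± 0.875 in RACK1-WT and 5.48 ± 0.342 in RACK1-Mut (SD, n = 2). The ratio was lowest in siTARG1, and its 2 values there, 1.88 and 1.71, lay below those of every other library.

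The fall in siTARG1 chose these genes and is given for its size alone. In a DESeq2 fit of the 4 siRNA libraries, CILP went from 7525 ± 15.7 to 1142 ± 74.0 normalized counts, or by -2.72 (SE 0.0732) as a log2 fold change, and 15.1% of the siControl level was left. VCAN went from 7883 ± 97.3 to 1830 ± 237, or by -2.11 (SE 0.0823) on the same scale, and 23.2% was left. In this comparison 1108 of 12056 tested genes (9.19%) were called lower at an adjusted p under 0.05, 866 (7.18%) were called higher, and 1974 (16.4%) in either direction. Among the 6133 genes with a mean of at least 100 normalized counts, 3 had a log2 fold change below that of CILP and 11 had one below that of VCAN. Just outside the choice, the next gene by adjusted p was IDH1, a cytosolic isocitrate dehydrogenase, with a log2 fold change of -1.66 (SE 0.0657). The targeted gene itself, OARD1, went from 138 and 58 coding reads in siControl to 7 and 6 in siTARG1.

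Loss of the MARylation sites of RACK1 gave no detectable change in either gene, and this comparison played no part in choosing them. With RACK1-Mut against RACK1-WT fitted alone, CILP had 3096 ± 176 against 2947 ± 77.0 normalized counts, and its log2 fold change was 0.07 (SE 0.0772, DESeq2 adjusted p = 1). The 95% interval ran from -0.08 to 0.22, that is from 94.6% to 117% of the RACK1-WT level. VCAN had 1619 ± 8.84 against 1620 ± 227, and its log2 fold change was -0.00 (SE 0.101, DESeq2 adjusted p = 1). Its interval ran from -0.20 to 0.20, or from 87.1% to 115% of RACK1-WT. A difference of the size seen between the siRNA groups lies outside both intervals. Of 12520 genes tested here, 10 (0.0799%) were called, 10 lower and 0 higher. RACK1 footprints were themselves lower in RACK1-Mut, with a log2 fold change of -0.42 (SE 0.0601), so the lines differ in RACK1 footprints as well as in its sites.

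**Figure D2:**
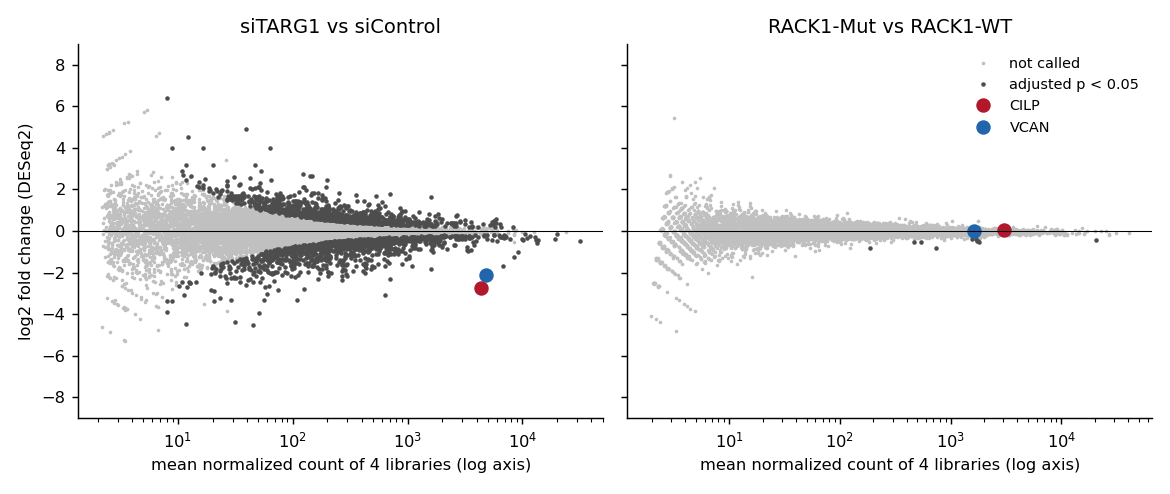
Log2 fold change against mean normalized count (log axis) for each gene tested, in siTARG1 vs siControl (left) and RACK1-Mut vs RACK1-WT (right), with genes at an adjusted p under 0.05 in dark grey. CILP and VCAN lie at -2.72 and -2.11 among highly counted genes on the left, the comparison that chose them, and at 0.07 and -0.00 on the right.

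Set beside the RACK1 lines, it was siControl that stood apart. The CILP mean in siControl was 3.52-fold that in RACK1-WT and 3.36-fold that in RACK1-Mut, and VCAN was 6.70-fold and 6.73-fold higher. By contrast, CILP in siTARG1 was within 1.87-fold of RACK1-WT and 1.96-fold of RACK1-Mut, on the low side, and VCAN in siTARG1 was 1.56-fold above each. Scaling by TMM factors or by CPM (counts per 1000000 coding reads) moved none of the log2 differences from RACK1-WT by more than the -0.91 to -0.84 seen for CILP in siTARG1. Among 6718 genes with a mean of at least 100 normalized counts, 227 (3.38%) were at least 2-fold higher in siControl than in RACK1-WT, where VCAN ranked 10th and CILP 45th. Both siControl libraries exceeded all 6 others for 1199 genes (17.8%), but a gap of at least 1 on the log2 scale between the lower siControl library and the highest other library was seen for 21 (0.313%). VCAN had the widest such gap at 1.97 and CILP the 4th widest at 1.69. RBP4 and SCUBE3, at 1.87 and 1.76, lay between them. The ranks use the siControl libraries, and the gap the siControl and siTARG1 libraries, on which the genes were chosen. Both therefore add a description and no test.

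Footprints over the untranslated parts showed a further difference between the genes. CILP had 70 and 51 5′ UTR reads in siControl, 5 and 3 in siTARG1, 25 and 31 in RACK1-WT, and 21 and 15 in RACK1-Mut. As a share of the gene's footprints, this was 0.806% ± 0.00842 in siControl, 0.331% ± 0.0699 in siTARG1, 0.750% ± 0.122 in RACK1-WT and 0.723% ± 0.160 in RACK1-Mut (SD, n = 2). Both siTARG1 values were below the other 6. Pooled over libraries, the share was 8 of 2379 reads in siTARG1, or 0.336% (95% exact binomial interval 0.145 to 0.662), and 121 of 14992 in siControl, or 0.807% (0.670 to 0.964). The intervals did not overlap, but they cover counting error only, rest on 8 reads in siTARG1, and belong to the groups on which CILP was chosen.

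VCAN had 160 and 87 5′ UTR reads in siControl, 34 and 29 in siTARG1, 30 and 32 in RACK1-WT, and 22 and 22 in RACK1-Mut. These reads fell in proportion to the coding reads, with shares of 1.53% ± 0.339, 1.64% ± 0.0477, 1.52% ± 0.335 and 1.68% ± 0.126 in the same order (SD, n = 2). The ranges of the 4 groups all overlapped. Per nucleotide, VCAN 5′ UTR density was 27.9% to 30.8% of its coding density by group. That value is set against the merged 5′ UTR and the V0 coding length, so it depends on which isoforms were present. The median was 6.30% to 7.29% over genes with at least 500 coding reads. For CILP the 5′ UTR density was 17.3% of its coding density in siControl, 7.07% in siTARG1, 16.1% in RACK1-WT and 15.5% in RACK1-Mut. The annotated 5′ UTRs hold 1 or 4 upstream ATG triplets in the VCAN transcripts and 0 in that of CILP. Between RACK1-Mut and RACK1-WT no difference in 5′ UTR share was detected for CILP (exact two-sided permutation p = 0.67) or VCAN (exact two-sided permutation p = 0.67), in a design whose smallest possible p is 0.33.

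**Figure D3:**
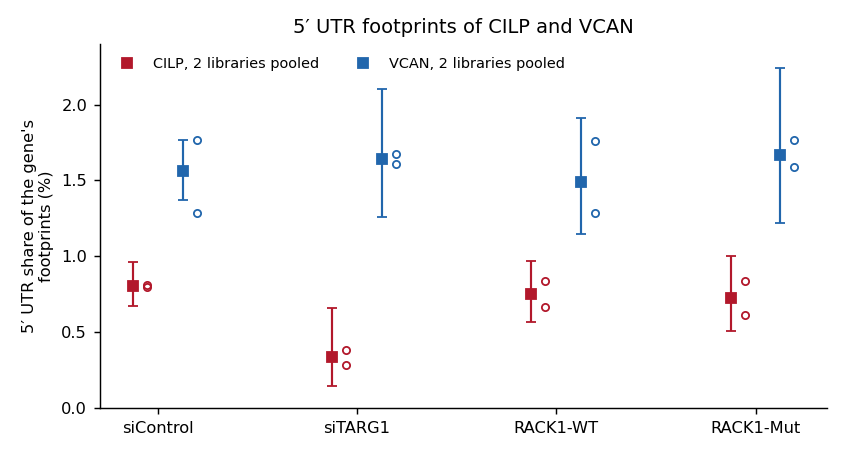
Share of a gene's footprints that fell in its 5′ UTR, in percent, by group for CILP (red) and VCAN (blue). Squares are 2 libraries pooled with 95% exact binomial intervals, which cover counting error only, and open circles are single libraries. CILP is at 0.336% in siTARG1 and 0.807% in siControl, whereas VCAN stays between 1.49% and 1.67%.

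Almost no footprints lay beyond the stop codons. CILP had 0 reads in its 1973 nt 3′ UTR in all 8 libraries, 0 of 29814 exon reads, which allows a share of up to 0.0101%. VCAN had 13 of 26438 (0.0492%), of which 9 were in siControl, 2 in siTARG1, 1 in RACK1-WT and 1 in RACK1-Mut. Over all genes, 3′ UTR reads made up 0.692% to 1.68% of footprints by group. Within single groups, 15.2% to 19.0% of genes with at least 500 coding reads and a 3′ UTR of at least 500 nt had none. Those genes were not matched to CILP in depth, which had 2371 to 14871 coding reads per group. No library held more than 6 reads in the 3′ UTR of either gene, in siTARG1 as in the other groups.

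The 3′ UTRs differ in the 7-mers examined, whose link to movement in siTARG1 was not tested here. The VCAN 3′ UTR holds both overlapping 7-mers TGAACAT and GAACATA and, further on, GAATATA, while the CILP 3′ UTR holds none of them and no TGAATAT. The sites are shown with their flanks on the plus strand (GRCh37), with the 7-mer in capitals.
VCAN site at nt 1056 after the stop codon, chr5:82877300-82877324: acctgaaaaTGAACATagtatgcta
VCAN site at nt 1057 after the stop codon, chr5:82877301-82877325: cctgaaaatGAACATAgtatgctag
VCAN site at nt 1249 after the stop codon, chr5:82877493-82877517: gaaatgagcGAATATAtagaaatag
TGAACAT or GAACATA was present in 17.6% of 18714 annotated 3′ UTRs, and in 20.7% of the 3041 that are 1500 to 2500 nt long, the size class of both genes. TGAATAT or GAATATA was present in 22.6% and 28.0%. The 7-mers came from an earlier look at the same siTARG1 comparison, so their presence in VCAN and absence from CILP is a description.

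Other matrix genes did not share a single direction in siTARG1 cells. Over 6 lists of genes around CILP and VCAN, 104 of 155 listed genes were tested, and 15 were called higher and 11 lower, or 25.0% against 16.4% of all genes. With edgeR 47 were called, 24 higher and 23 lower, and with 1 library left out 10 to 14, with the split turning to 4 higher and 6 lower without siTARG1 replicate 1. The median log2 fold change of the tested list genes was 0.09 against 0.00 over all genes tested. For the counts by list below, the shares over all genes tested in siTARG1 were 7.18% called higher and 9.19% called lower. None of the 107 list genes tested in RACK1-Mut against RACK1-WT was called by DESeq2 or by edgeR. DESeq2 called only 10 of all 12520 genes (0.0799%) there, so a count of 0 does not set the lists apart. Of the list genes, 3 had an unadjusted p under 0.05 in DESeq2 and 14 in edgeR. Values below are CPM, counts per 1000000 coding reads (mean ± SD, n = 2), and adjusted p-values are those of DESeq2 over all genes.

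Genes of hyaluronan binding and turnover, the partners of versican, were few. Of 8 tested, 1 was called higher and 2 lower. CEMIP2 was the gene called higher in siTARG1 (log2 fold change 1.12, SE 0.3, adjusted p = 0.00221). CD44, the main cell surface receptor for hyaluronan, fell from 80.8 ± 11.1 in siControl to 34.2 ± 5.08 in siTARG1 (log2 fold change -1.31, SE 0.213, adjusted p = 3.07e-08). HMMR, a hyaluronan-binding protein of the mitotic spindle, fell from 50.2 ± 2.60 to 28.1 ± 0.741 (log2 fold change -0.91, SE 0.238, adjusted p = 0.00157). HYAL2, a hyaluronidase, differed by 0.05 (SE 0.218, adjusted p = 0.93) on the log2 scale and was not called. ACAN, which encodes aggrecan, the cartilage relative of versican, had 0 reads in all 8 libraries. None of the 14 tested proteases that cleave versican and their inhibitors was called, beside 16.4% of all genes tested. Among them, ADAMTS4, ADAMTS8, ADAMTS9, MMP1, MMP2 and MMP9 were given no adjusted p by DESeq2, so they could not be called. The most densely read, the metalloprotease inhibitor TIMP2, differed by -0.18 (SE 0.135, adjusted p = 0.434) on the log2 scale and was not called.

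Genes that build chondroitin sulfate moved both ways, with 4 of 25 tested called higher and 3 lower. UGDH, which makes the UDP-glucuronate used for the chains, fell from 276 ± 33.6 to 155 ± 3.89 (log2 fold change -0.90, SE 0.121, adjusted p = 7.96e-12). CHPF, a chondroitin polymerizing factor, rose from 116 ± 4.22 to 179 ± 4.97 (log2 fold change 0.55, SE 0.131, adjusted p = 0.000421). SLC35B2, a Golgi transporter of the sulfate donor, rose from 72.0 ± 1.99 to 116 ± 2.47 (log2 fold change 0.61, SE 0.158, adjusted p = 0.00131). PAPSS1, which makes that donor, differed by 0.11 (SE 0.128, adjusted p = 0.651) on the log2 scale and was not called. Its paralog PAPSS2, which makes the same donor, was called lower (log2 fold change -1.67, SE 0.603, adjusted p = 0.0349). PAPSS2 had a mean of only 23.8 normalized counts. CSGALNACT2, with a mean of 21.2, was also called lower (log2 fold change -2.02, SE 0.654, adjusted p = 0.0161). FAM20B and PXYLP1 were also called higher, at 1.41 (SE 0.309, adjusted p = 9.75e-05) and 1.13 (SE 0.412, adjusted p = 0.0385) on the log2 scale.

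In the TGF-β and IGF-1 axis on which CILP acts, 3 of 21 tested genes were called higher and 3 lower. IGFBP3, the main carrier of IGF in serum, fell from 393 ± 16.9 to 177 ± 10.4 (log2 fold change -1.22, SE 0.104, adjusted p = 3.79e-29). IGFBP4 and IGFBP5, further IGF-binding proteins, rose by 0.83 (SE 0.132, adjusted p = 1.3e-08) and 0.64 (SE 0.182, adjusted p = 0.00485) on the log2 scale. The remaining gene called higher was IGF2R, at 0.33 (SE 0.0885, adjusted p = 0.00236). The remaining genes called lower encode TGF-β receptors: TGFBR3 at -1.39 (SE 0.31, adjusted p = 0.00014) and TGFBR2 at -0.47 (SE 0.158, adjusted p = 0.0212). CILP2, the paralog of CILP, was not called, at 18.5 ± 0.674 in siControl and 28.6 ± 1.81 in siTARG1 (log2 fold change 0.55, SE 0.303, adjusted p = 0.222).

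The other proteoglycans included more called higher than lower, 6 against 1 of 19 tested, with a list median of 0.59. HSPG2, which encodes the basement membrane proteoglycan perlecan, rose from 164 ± 18.4 to 337 ± 35.8 (log2 fold change 0.96, SE 0.12, adjusted p = 8.13e-14). SDC1 and SDC4, cell surface syndecans, rose by 0.69 (SE 0.135, adjusted p = 8.12e-06) and 0.62 (SE 0.134, adjusted p = 6.73e-05), and AGRN, agrin, rose by 0.59 (SE 0.136, adjusted p = 0.000251) on the log2 scale. GPC4, a glypican, fell from 567 ± 3.27 to 313 ± 16.8 (log2 fold change -0.93, SE 0.0886, adjusted p = 1.92e-23). Among matrix glycoproteins, 1 of 17 tested was called higher and 2 lower. CCN1, a matricellular protein, rose by 0.49 (SE 0.0995, adjusted p = 1.89e-05), while FN1 (fibronectin) and TNC (tenascin-C) had log2 fold changes of -0.41 (SE 0.11, adjusted p = 0.00253) and -0.38 (SE 0.14, adjusted p = 0.0367), both called lower.

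**Figure D4:**
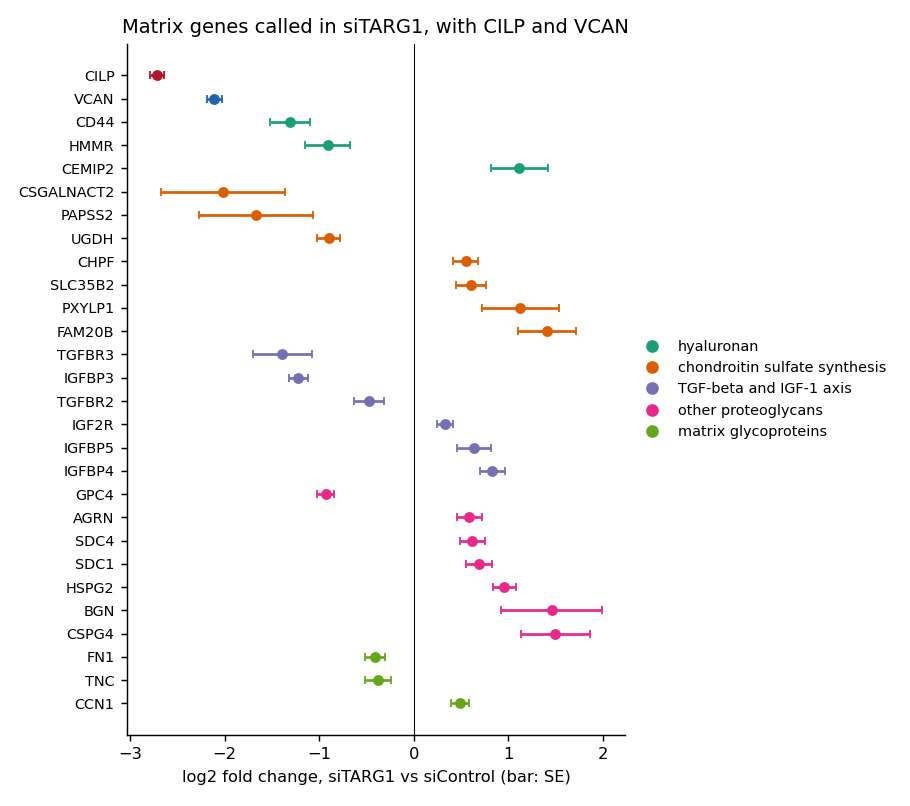
Log2 fold change in siTARG1 vs siControl, with its SE as a bar, for each gene of the 6 matrix lists called at an adjusted p under 0.05, coloured by list, with CILP and VCAN at the top. None was called among the versican proteases and inhibitors. The 26 list genes lie on both sides of 0, 15 higher and 11 lower, and none lies below CILP at -2.72 or VCAN at -2.11.

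The genes with profiles most like that of CILP across the 8 libraries were AGR2, TENT5C, RBP4, PLEKHS1 and FAS. Likeness was the root mean square difference of log2(normalized count + 1) after each gene was centred, over 6717 genes, and it was 0.281 for AGR2 and 0.329 for FAS. AGR2, which encodes a protein disulfide isomerase of secretory cells, had mean normalized counts of 387 in siControl, 86.8 in siTARG1, 106 in RACK1-WT and 138 in RACK1-Mut. RBP4, retinol-binding protein, went from 1380 in siControl to 275, 310 and 334 in the same order. In each of these 5 genes the lower siControl library exceeded all 6 others. The choice of neighbours depends on the measure: with Pearson's correlation in its place, 0 of these 5 were among the 5 nearest to CILP, and 1 of the 5 named next for VCAN.

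VCAN was most like the region of ENSG00000267314, PRSS23, a region joining PRRG1 and TSPAN7, SCUBE3 and IGFBP3, with differences of 0.323 to 0.421. IGFBP3 is therefore the closest of the listed matrix genes, with mean normalized counts of 1700 in siControl, 727 in siTARG1, 523 in RACK1-WT and 474 in RACK1-Mut. PRSS23, a secreted serine protease, had 1950, 606, 447 and 573. CILP and VCAN were not each other's nearest neighbours. Their profiles differed by 0.679, which placed VCAN 113th in likeness to CILP and CILP 58th in likeness to VCAN, with r = 0.803 over the 8 libraries, 2 of which, those of siControl, lie far from the rest. All profiles share these libraries.

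**Figure D5:**
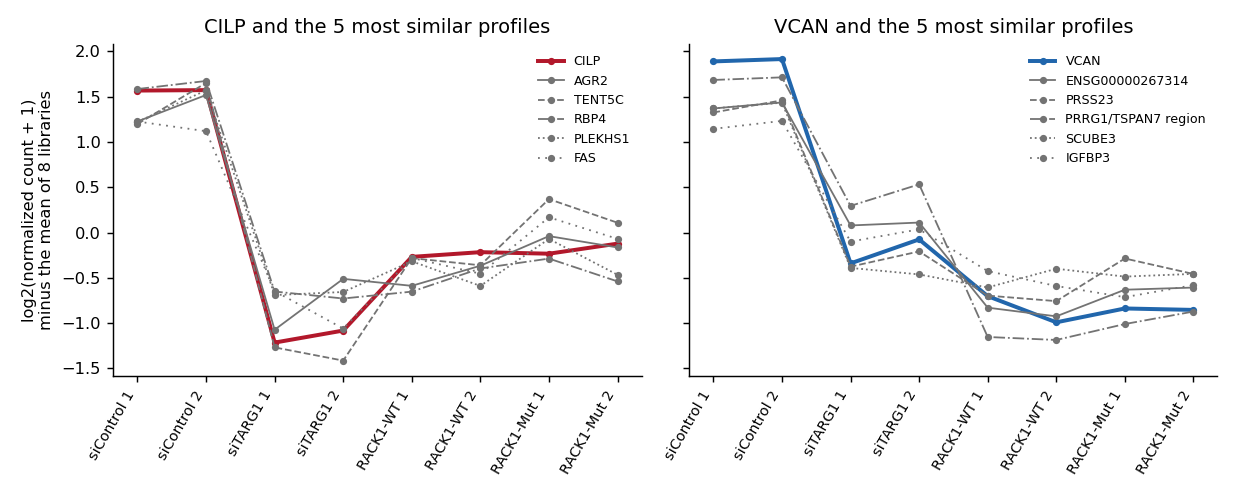
Log2(normalized count + 1) minus the mean of the 8 libraries, by library, for CILP (red, left) and VCAN (blue, right) with their 5 most similar genes in grey. All lines are highest in the 2 siControl libraries, and CILP reaches its minimum in siTARG1 while VCAN reaches its minimum in a RACK1-WT library.

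Markers of the labelled cell type and of other cells were read beside these values. Of 15 markers of ovarian carcinoma epithelium, 14 matched a region and CLDN4 was the 1 at 0 reads. Their sum was 12700 to 13000 CPM in siControl, 8840 to 10100 in siTARG1, 13000 to 13300 in RACK1-WT and 13100 to 13500 in RACK1-Mut. The sum was lower in siTARG1 than in siControl, as CILP and VCAN were. In the RACK1 lines, where both genes were also below siControl, the sum was not lower. Any part of the sum in the fall of CILP and VCAN in siTARG1 was not tested. The keratins KRT8 and KRT18 had log2 fold changes of -1.03 and -1.24 and went from 3360 and 3240 CPM in siControl to 1720 and 1440 in siTARG1, while CDH1 (E-cadherin) and MUC1 were called higher at 1.64 and 1.26.

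Markers of cells that usually make these proteins were low beside CILP and VCAN but not absent. Fibroblast markers (11 of 12 matched) summed to 54.2 to 55.5 CPM in siControl, 38.5 to 49.4 in siTARG1, 53.6 to 54.4 in RACK1-WT and 48.4 to 54.5 in RACK1-Mut. COL1A1 and ACTA2 held most of this signal, with 1033 and 561 reads over the 8 libraries, while DCN had 2 and COL3A1 had 20. ACTA2, the smooth muscle actin, moved with CILP and VCAN, from 27.9 CPM in siControl to 12.3 in siTARG1 (log2 fold change -1.25, called lower), 12.7 in RACK1-WT and 13.1 in RACK1-Mut, and its part in their fall was not tested. COL1A1 was at 20.2, 21.3, 35.9 and 33.6 CPM in the same order. Chondrocyte markers (8 of 8 matched) summed to 25.0 to 31.9 in siControl, 25.9 to 32.7 in siTARG1, 13.3 to 14.5 in RACK1-WT and 10.5 to 14.2 in RACK1-Mut. SOX9, a transcription factor of chondrocytes and of some epithelia, made up most of that sum with 510 reads, at 22.6, 22.1, 9.20 and 9.24 CPM in the same order, MATN3 had 87 reads, and ACAN was at 0. Endothelial and leukocyte lists stayed at or below 16.6 in every library. For comparison, CILP and VCAN alone took 2030 to 2150 CPM each in the siControl libraries.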

How the data were processed

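The measurements are Ribo-seq footprint counts in 8 libraries of OVCAR3 cells, grouped by sample title. Per the labels and methods, the authors isolated footprints after RNase I digestion, removed rRNA reads with Bowtie 1.1.2, aligned to transcripts with TopHat2 2.1.1 allowing up to 64 hits, and counted with Plastid on GRCh37 with GENCODE release 24. The deposited values are whole-number read counts for exons, 5′ UTR, coding sequence and 3′ UTR of merged gene regions, beside region lengths and the authors' RPKM, which was not used for the results. The file headers record reads of 26 to 36 nt placed 14 nt from the 5′ end, whereas in the methods the offset is 12 nt and taken from the other end. Which was used is not given, and it matters most at the edges of the coding sequence. Whether reads sharing a molecular identifier were collapsed is not stated, so intervals cover counting error only.

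Symbols were found through GENCODE release 44 lifted to GRCh37 for 19612 of 20165 regions (97.3%), and 452 regions join several symbols. Coding counts were tested with DESeq2 1.42.0 in R 4.3.3, the tool the study's methods name, after the scripts were tested on simulated data. The settings were chosen here: the Wald test, at least 10 counts summed over the 4 libraries of a comparison, and a Benjamini-Hochberg adjusted p under 0.05. Depth was 3100947 to 6604190 coding counts per library. Levels across groups used size factors of all 8 libraries. A floor of 3 counts stood for 0 reads. Alternatives were edgeR 4.0.16, TMM factors, other count filters, exon counts, a replicate term, all 8 libraries in 1 fit, removal of mitochondrially encoded and the 10 most counted genes, and leaving out each library. Named list genes are up to 3 called per list that changed most and averaged at least 100 normalized counts, plus the 2 most densely read per list where the text turns on them, and for each profile the 5 nearest genes. CILP2, ACAN, KRT8, KRT18, CDH1, MUC1, CLDN4, DCN, COL3A1, COL1A1, ACTA2, SOX9 and MATN3 were named as the paralog, relative or markers. CEMIP2, FAM20B, PXYLP1, CSGALNACT2, PAPSS2, TGFBR2, TGFBR3 and IGF2R were named as further called genes of their lists. The versican proteases without an adjusted p were named as such. The members, gene lists and motifs were chosen with earlier results of these data known. Promoter sequences are from RefSeq. IGF1R, CD24 and PECAM1 and list genes in regions that join several symbols were not analysed here.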

Additional observations from a re-analysis of the deposited data

How the results depend on the processing

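The falls of CILP and VCAN in siTARG1 kept their direction and size under every alternative run, with log2 fold changes of -2.78 to -2.65 and of -2.24 to -1.98 when each library was left out. In RACK1-Mut against RACK1-WT, CILP ranged from 0.0127 to 0.13 with a library left out. The VCAN value there is so near 0 (-0.00138) that its sign turned with edgeR (0.000234), exon counts (0.000874) and the replicate block (0.00492), and it ranged from -0.14 to 0.15 with a library left out, without RACK1-WT replicate 1 at 0.15 and without RACK1-Mut replicate 2 at 0.00533, with an adjusted p of 0.976 in the fit of all 8 libraries and of 1 in the other fits. Same-numbered libraries did not deviate together (correlation 0.0307 in the siRNA and 0.0832 in the RACK1 experiment), so the numbers were not taken as pairs, and with the replicate block 21 list genes were called in siTARG1 in place of 26. edgeR called 47 list genes there (24 higher, 23 lower, all 26 among them), and the all-library fit 38. Leaving out 1 library, with the lone library assumed to vary like the other group, gave 10 to 14 (11 without siControl replicate 1, 14 without siControl replicate 2, 10 without siTARG1 replicate 1 and 13 without siTARG1 replicate 2). The list counts therefore rest on all 4 libraries, and the cause of the difference between tools was not tested. In RACK1-Mut against RACK1-WT 0 list genes were called under each alternative that kept every library. The main fit called only 0.0799% of all genes there. Of the 5 genes most like CILP, 0 stayed with Pearson's correlation and 1 with a minimum mean of 500 counts, and of those most like VCAN, 1 and 2 stayed. Shares in the 5′ UTR and 3′ UTR moved by less than their spread with exon reads as denominator or libraries pooled. The scalings by TMM and by CPM across experiments were chosen after seeing the data. Depth limits the UTR shares, since that of the CILP 5′ UTR in siTARG1 rests on 8 reads and those of the VCAN 3′ UTR on 1 to 9 reads per group.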
